A study of Mus musculus with 8 samples.

Results

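The nuclear genes for subunits of the mitochondrial respiratory chain were followed across brain tumor and naive brain of mice given a vehicle or the kinase inhibitor MRX-2843. Members were chosen by symbol: the Nduf genes of the A, B, C, S and V series, Sdha to Sdhd, the Uqcr genes, the nuclear Cox subunit genes whose number is 4 to 8 and is followed directly by a letter a to c, and the Atp5 genes, without rows marked as pseudogenes in the symbol. This rule took 89 of the 55414 genes in the table, and 13 pseudogene rows were left out by it. Of the 89 members, 40 were placed in complex I, 4 in complex II, 8 in complex III, 19 in complex IV and 18 in complex V. Cox4i1, Cyc1 and Ndufab1 are subunit genes that the symbol rule misses, and they are counted with the other gene lists.

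The libraries came from a mouse model of supratentorial ependymoma, a brain tumor driven here by a fusion of Zfta with Rela, and the fusion stands as genotype for all 8 libraries, naive brain included. Once MRI had shown a tumor, mice were assigned at random to vehicle or to 50 mg/kg of MRX-2843, an inhibitor of MERTK and FLT3, by daily gavage over 5 days, and they were killed 1 h after the last dose. Naive brain and tumor under each of the treatments made 4 groups of 2 libraries. Below, the naive brain of a tumor group means the naive group of the same treatment, which is not known to come from the same mice. The age of the mice, the cells that carry the fusion and whether naive brain came from a mouse with a tumor are not given in the labels, which call the libraries of a group duplicates without naming separate animals, so p-values may measure only technical spread. All MRX-2843 libraries carry the number 909 in the table and vehicle libraries 914 or 915, and treatment cannot be told apart from that number.

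The respiratory chain sits in the inner mitochondrial membrane. Complexes I and II pass electrons from NADH and succinate to ubiquinone, complex III passes them to cytochrome c, complex IV reduces oxygen, and complex V uses the resulting proton gradient to make ATP. Neurons depend heavily on this pathway. Complexes I, III, IV and V combine subunits encoded in the mitochondrial DNA with many encoded in the nucleus, while complex II is nuclear throughout. Several complex IV subunits have a ubiquitous and a tissue-restricted form from separate genes, the latter known mainly from heart and skeletal muscle.

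Library totals ran from 51150569 to 112938462 counts. Levels are CPM over library totals scaled by TMM, and fold changes are log2 values ± standard error (SE) with adjusted p-values from edgeR's quasi-likelihood test. A gene is called changed at an adjusted p under 0.05. The tissues differed widely in cell markers. A set of 5 neuron markers summed to 4465 to 4553 CPM in vehicle naive brain and 300.1 to 304.0 in vehicle tumor. The same markers summed to 2589 to 2604 CPM in MRX-2843 naive brain and 2326 to 2364 in MRX-2843 tumor. Markers of dividing cells summed to 213 to 214 CPM in vehicle tumor and 18.8 to 24.7 in MRX-2843 tumor, against 3.40 to 5.26 in naive brain. Between MRX-2843 tumor and its naive brain 2 of the 5 neuron markers were lower. So were 3 of 3 inhibitory neuron markers, Pvalb, Gad1 and Gad2. These summed to 625 to 654 CPM in naive brain and 292 to 324 in tumor. Oligodendrocyte markers were higher there in 5 of 5, at 6265 to 6340 CPM against 11607 to 12022. These are bulk tissues, so fewer cells of a type and less RNA per cell cannot be told apart, and the part of cell makeup in the results was not tested.

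In vehicle-treated mice, most nuclear subunit genes were lower in tumor than in naive brain. Of the 86 members that passed the filter on low counts, 64 were lower and 7 higher, where over all 24356 genes tested 60.1% were called, 30.8% lower and 29.3% higher. The members' median log2 fold change was -0.61, and that of all genes -0.03. Summed over the 89 members, the level was 10237 and 10586 CPM in the vehicle naive libraries, 6823 and 6662 in vehicle tumor, 11057 and 11328 in MRX-2843 naive brain, then 7793 and 8176 in MRX-2843 tumor. Both tumor groups lay below both naive groups, and vehicle tumor was lowest. As a share of all counts, without TMM, members made up 0.971 and 1.01% in vehicle naive brain, 0.780 and 0.752% in vehicle tumor, 1.05 and 1.07% in MRX-2843 naive brain, then 0.755 and 0.798% in MRX-2843 tumor, so the tumor groups overlapped by that measure. Of the counts that are not mitochondrially encoded, members made up 0.806 and 0.778% in vehicle tumor and 0.913 and 0.955% in MRX-2843 tumor, without overlap. In naive brain that share was 1.14 and 1.19% with vehicle and 1.28 and 1.31% with MRX-2843. With library totals in place of TMM the median of all genes in vehicle tumor against naive brain moved up by 0.25. By that scaling 51 members were lower and 13 higher.

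**Figure D1:**
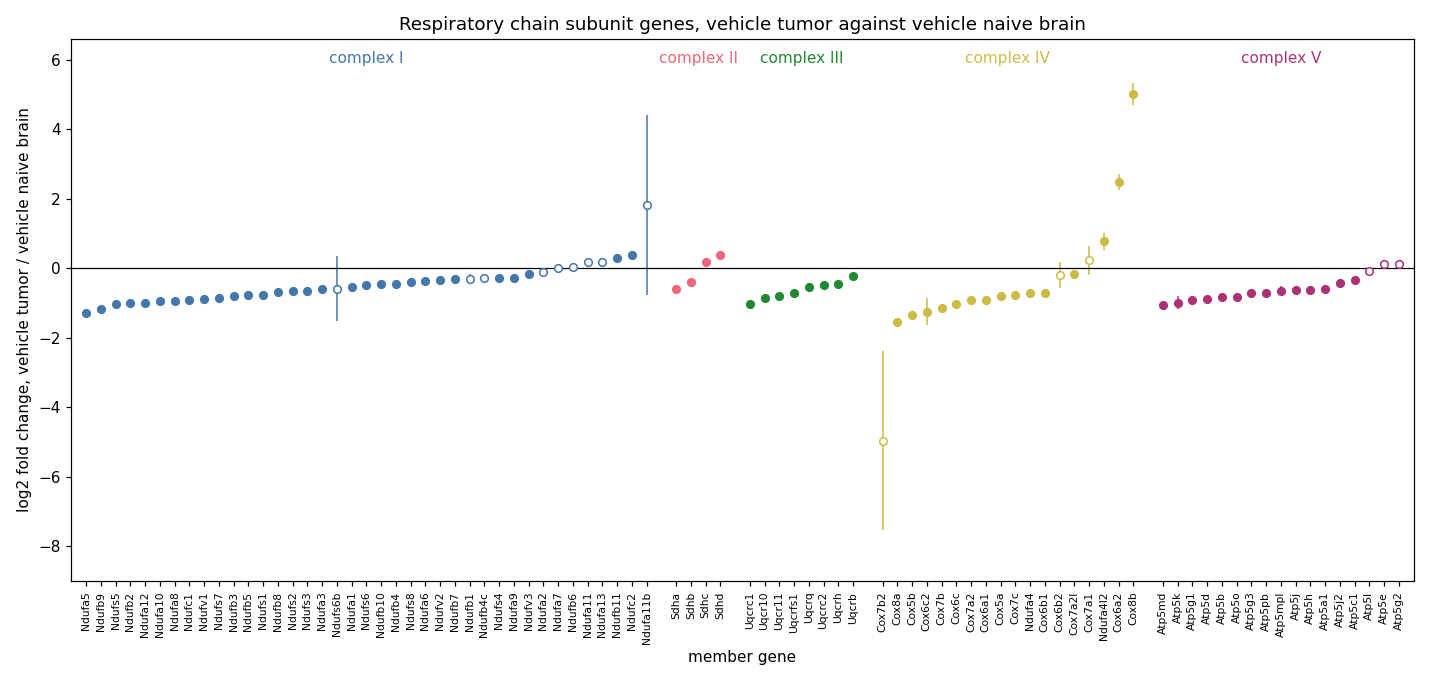
Log2 fold change (y axis) of vehicle tumor against vehicle naive brain for the 86 tested members (x axis), grouped by complex and sorted within it. Bars are 1 SE, filled points are called at an adjusted p under 0.05 and open points are not. Most points lie below 0, and the rises are led by Cox8b and Cox6a2 at the right of complex IV.

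Complex I takes electrons from NADH through a peripheral arm and pumps protons in its membrane arm. Of its 39 tested members 28 were lower and 2 higher in vehicle tumor (median -0.49). All 7 core subunits, which carry the flavin and iron-sulfur clusters, were lower (median -0.66, from -0.89 to -0.33). Of 20 accessory subunits of the membrane arm 14 were lower and 2 higher, and of 9 in the peripheral arm 7 were lower. The 3 gene copies that GENCODE lists as processed pseudogenes, Ndufa11b, Ndufb4c and Ndufs6b, had no call.

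Ndufa5, an accessory subunit of the peripheral arm, had the largest fall in complex I. It stood at 68.9 and 71.2 CPM in vehicle naive brain, 30.7 and 26.4 in vehicle tumor, 71.5 and 88.3 in MRX-2843 naive brain, then 52.8 and 55.3 in MRX-2843 tumor. The vehicle tumor libraries were the lowest of all (-1.29 ± 0.10, adjusted p = 2.3e-08). Ndufb9, of the membrane arm, followed with 74.1 and 71.8 CPM in vehicle naive brain against 32.8 and 31.4 in vehicle tumor (-1.18 ± 0.10, adjusted p = 5.7e-08). It stood at 72.2 and 91.1 CPM in MRX-2843 naive brain against 55.7 and 62.1 in MRX-2843 tumor, so its groups fell in the same order as those of Ndufa5.

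The 2 complex I members that rose, Ndufc2 and Ndufb11, both belong to the membrane arm. Ndufc2 was at 79.1 and 84.2 CPM in vehicle naive brain, 110 and 102 in vehicle tumor, 80.8 and 90.4 in MRX-2843 naive brain, then 47.0 and 55.2 in MRX-2843 tumor. Vehicle tumor was the highest group and MRX-2843 tumor the lowest, without overlap (vehicle tumor against naive brain 0.38 ± 0.08, adjusted p = 0.0012). Alg8 and Thrsp, which lie near Ndufc2, also rose there (1.17 ± 0.22 and 3.59 ± 0.08), and both were lower in MRX-2843 tumor than in vehicle tumor (-0.97 ± 0.22 and -3.82 ± 0.08). Ndufb11, on the X chromosome, was at 90 and 92.2 CPM in vehicle naive brain against 113 and 112 in vehicle tumor (0.30 ± 0.06, adjusted p = 0.00035), with 103 and 102 in MRX-2843 naive brain against 74.5 and 75.3 in MRX-2843 tumor. Ndufb11 shares 117 exon bases with Rbm10 on the other strand, and Rbm10 fell (-0.61 ± 0.07). Ndufa1, another X-linked subunit with the highest level per length in complex I, fell from 58.2 and 56.5 to 43.5 and 35.4 CPM (-0.54 ± 0.10, adjusted p = 0.00027). Ndufa2, second by that measure, was at 65.4 and 76.1 CPM against 67.7 and 62.3 and had no call (-0.12 ± 0.09).

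**Figure D2:**
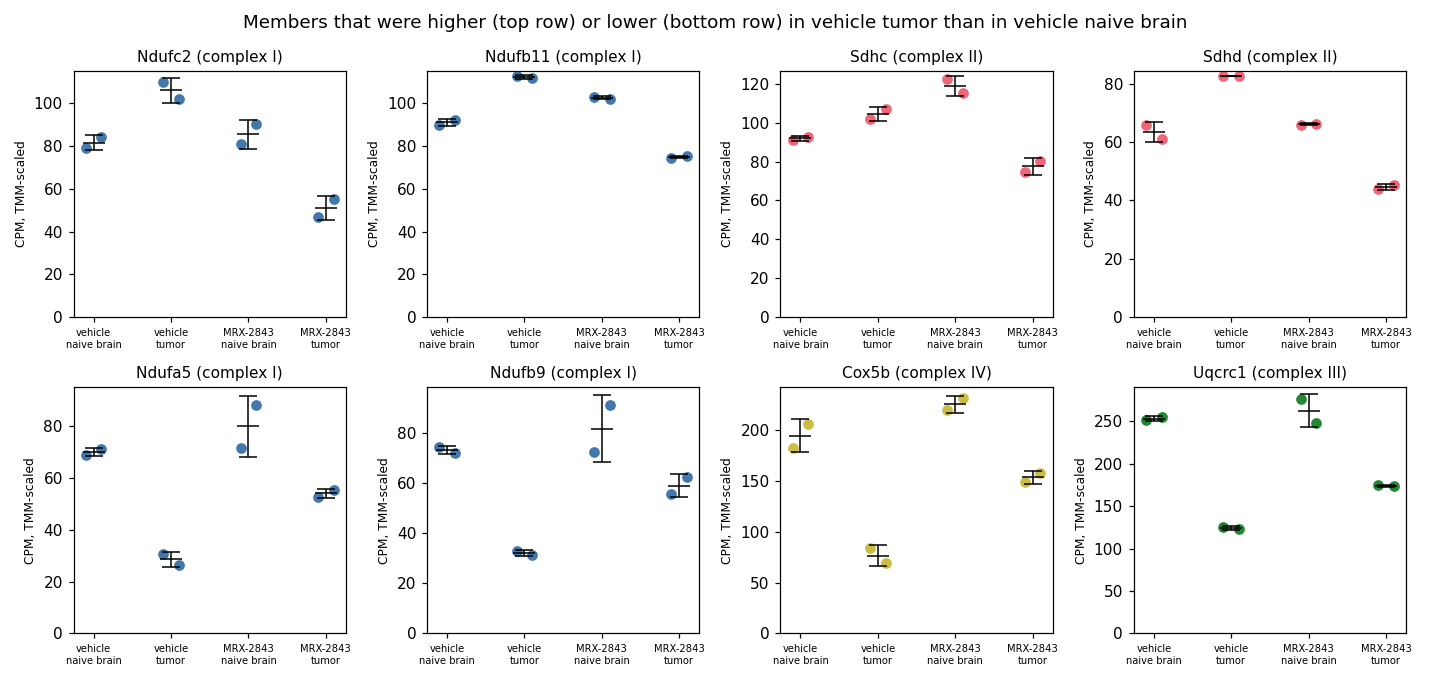
CPM scaled by TMM (y axis, from 0) of 8 members in the 4 groups (x axis). Points are libraries, bars the mean ± SD of 2 libraries, and colours mark the complex. The upper panels show members whose vehicle tumor libraries lie above vehicle naive brain and whose MRX-2843 tumor libraries are lowest, and the lower panels members whose vehicle tumor libraries are lowest.

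Complex II, which also acts in the tricarboxylic acid cycle, split by position in the enzyme. The catalytic head subunits were lower in vehicle tumor, and the membrane anchors were higher. Sdha, the flavoprotein, was at 273 and 279 CPM in vehicle naive brain, 182 and 181 in vehicle tumor, 295 and 293 in MRX-2843 naive brain, then 221 and 224 in MRX-2843 tumor. No group of Sdha overlapped another, and vehicle tumor was lowest (-0.60 ± 0.05, adjusted p = 3.2e-08). Sdhb, the iron-sulfur subunit, went from 133 and 130 to 94.9 and 106 CPM (-0.39 ± 0.07, adjusted p = 0.0001), with 139 and 130 in MRX-2843 naive brain against 92.5 and 94.9 in MRX-2843 tumor. Its tumor libraries of both treatments lay close together below the naive ones. With library totals the fall of Sdhb in vehicle tumor had no call (-0.14).

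The anchor subunit Sdhd was at 65.8 and 61.1 CPM in vehicle naive brain, 82.5 and 82.5 in vehicle tumor, 65.8 and 66.3 in MRX-2843 naive brain, then 43.8 and 45.2 in MRX-2843 tumor. The vehicle tumor libraries were highest and the MRX-2843 tumor libraries lowest (vehicle tumor against naive brain 0.38 ± 0.07, adjusted p = 0.00018). Sdhc, the other anchor, was at 91.0 and 92.7 CPM in vehicle naive brain, 102 and 107 in vehicle tumor, 123 and 115 in MRX-2843 naive brain, then 74.4 and 80.5 in MRX-2843 tumor. Its rise in vehicle tumor (0.19 ± 0.06, adjusted p = 0.023) lost its call without vehicle naive library 1 (0.17), vehicle naive library 2 (0.20) or vehicle tumor library 2 (0.15).

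Complex III fell as a whole, with 8 of 8 members lower in vehicle tumor (median -0.63). Uqcrc1, a core protein, had the largest fall, from 251 and 255 to 126 and 123 CPM (-1.03 ± 0.06, adjusted p = 6e-10), with 277 and 249 in MRX-2843 naive brain against 175 and 173 in MRX-2843 tumor. The small subunit Uqcr10 went from 82.5 and 81.7 to 47.3 and 44.3 CPM (-0.84 ± 0.07, adjusted p = 6.9e-08). Uqcr11, with the highest level per length in the complex, went from 101 and 113 to 65.5 and 56.3 CPM (-0.81 ± 0.10, adjusted p = 4.7e-06). In each of these 3 genes the vehicle tumor libraries were below all 6 others. The smallest fall was that of Uqcrb, from 37.5 and 37.0 to 32.4 and 31.4 CPM (-0.22 ± 0.09, adjusted p = 0.048). It lost its call without either library of vehicle naive brain, vehicle tumor or MRX-2843 tumor, at -0.24 to -0.20, and was at 0.032 with library totals. The call was also lost with median-of-ratios scaling (-0.21), no filter (-0.22), DESeq2 (-0.21) or a replicate block (-0.22).

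In complex IV, 12 of 18 tested members were lower and 3 higher (median -0.78), and the direction followed the class of subunit. All 10 ubiquitous subunits were lower (median -0.91, from -1.56 to -0.71). Of 6 tissue-restricted paralogs 3 were higher, 3 had no call and none was lower. Complex IV made up 22.4 and 22.5% of the summed member level in the vehicle naive libraries and 18.6 and 18.0% in vehicle tumor, while complex I made up 27.6 and 27.4% and then 30.7 and 30.3%. In MRX-2843 tumor complex IV made up 23.7 and 23.9%, against 21.3 and 21.6% in MRX-2843 naive brain.

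Cox8a, a small ubiquitous subunit and the member with the highest level per length of all, had the largest fall among the members called. It was at 503 and 490 CPM in vehicle naive brain, 165 and 172 in vehicle tumor, 453 and 443 in MRX-2843 naive brain, then 393 and 417 in MRX-2843 tumor. Vehicle tumor stood far below the 3 other groups (-1.56 ± 0.05, adjusted p = 7.7e-13). Cox6a1, second by level per length, was at 424 and 450 CPM in vehicle naive brain, 238 and 229 in vehicle tumor, 383 and 381 in MRX-2843 naive brain, then 370 and 420 in MRX-2843 tumor. Again only vehicle tumor was apart, and the MRX-2843 tissues overlapped (vehicle tumor against naive brain -0.90 ± 0.06, adjusted p = 4e-09). Cox5b, a zinc-binding subunit, went from 183 and 206 to 83.9 and 69.3 CPM (-1.35 ± 0.08, adjusted p = 2e-09), with 220 and 232 in MRX-2843 naive brain against 149 and 158 in MRX-2843 tumor.

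The tissue-restricted paralog Cox8b moved the other way from Cox8a. Cox8b is the form of subunit 8 known from heart, skeletal muscle and brown fat. It had 36 and 26 counts in vehicle naive brain, 1298 and 1276 in vehicle tumor, 12 and 18 in MRX-2843 naive brain, then 8 and 8 in MRX-2843 tumor. In CPM these were 0.517 and 0.387, then 15.0 and 14.5, then 0.246 and 0.169, then 0.141 and 0.135. The vehicle tumor libraries alone were above 1 CPM (vehicle tumor against naive brain 5.02 ± 0.31, adjusted p = 1.8e-09). Near Cox8b, Psmd13 rose (0.25 ± 0.08) and Sirt3 fell (-1.87 ± 0.12). Per length, Cox8b made up 13.5 and 12.6% of the Cox8a and Cox8b level in vehicle tumor, and 0.0555 to 0.176% in the 6 other libraries.

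The sequences before the start of Cox8a and Cox8b are shown because these genes for the same subunit moved in opposite directions. They are the 250 bases before the RefSeq transcript start on GRCm38.p6, on the gene's own strand, chr19:7217617-7217866 (minus) for Cox8a and chr7:140900447-140900696 (minus) for Cox8b. Capitals mark a match to ACTTCCGG, a motif of the GABP factor, whose last letters lie past the start and are not shown.
Cox8a: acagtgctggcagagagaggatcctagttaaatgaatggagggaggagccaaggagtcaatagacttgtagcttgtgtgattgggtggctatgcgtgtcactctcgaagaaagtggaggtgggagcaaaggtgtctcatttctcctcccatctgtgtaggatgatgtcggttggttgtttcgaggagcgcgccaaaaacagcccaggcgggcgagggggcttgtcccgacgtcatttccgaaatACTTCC
Cox8b: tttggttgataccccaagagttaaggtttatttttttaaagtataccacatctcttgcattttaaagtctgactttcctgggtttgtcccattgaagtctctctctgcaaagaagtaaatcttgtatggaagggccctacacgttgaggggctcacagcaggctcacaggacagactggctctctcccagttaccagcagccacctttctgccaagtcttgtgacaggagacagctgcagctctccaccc
The window of 300 bases around the start, 250 before and 50 after, holds 19 CpG dinucleotides and 2 GABP motifs in Cox8a, and 2 CpG and none of the motifs searched in Cox8b.

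The other tissue-restricted forms changed less. Cox6a2, the heart and muscle form of subunit 6a, was at 4.35 and 2.89 CPM in vehicle naive brain, 22.0 and 18.8 in vehicle tumor, 4.72 and 5.19 in MRX-2843 naive brain, then 3.87 and 5.36 in MRX-2843 tumor. Only the vehicle tumor libraries were apart (2.49 ± 0.23, adjusted p = 1.5e-07), and Cox6a2 rose per length from 1.05 and 0.658% of the Cox6a1 and Cox6a2 level to 8.73 and 7.78%. Cox6a2 shares 70 exon bases with Itgad on the other strand, which stood at 0.324 and 0.363 CPM in vehicle tumor. The nearby integrin genes Itgax and Itgam, which share no exon bases with it, rose in vehicle tumor as Cox6a2 did (6.37 ± 0.38 and 3.05 ± 0.15) and were lower in MRX-2843 tumor than there (-4.49 ± 0.33 and -2.68 ± 0.14). Ndufa4l2, a paralog of the complex IV subunit Ndufa4 known to be induced by low oxygen, was at 4.42 and 3.52 CPM in vehicle naive brain, 7.02 and 6.53 in vehicle tumor, 4.88 and 4.26 in MRX-2843 naive brain, then 3.41 and 3.15 in MRX-2843 tumor. Its rise (0.77 ± 0.23, adjusted p = 0.011) lost its call without vehicle naive library 2 (0.62) or vehicle tumor library 1 (0.72). It shares 32 exon bases with Shmt2, which rose by a like amount (0.86 ± 0.11), and the part of shared reads was not tested. Ndufa4 itself fell from 174 and 185 to 111 and 106 CPM (-0.72 ± 0.07).

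Cox7a1, the muscle form of subunit 7a, was at 1.61 and 2.7 CPM in vehicle naive brain, 2.53 and 2.51 in vehicle tumor, 2.56 and 1.30 in MRX-2843 naive brain, then 1.16 and 1.13 in MRX-2843 tumor. Its vehicle groups overlapped (0.23 ± 0.42, adjusted p = 0.67). Its ubiquitous counterpart Cox7a2 fell from 132 and 135 to 69.8 and 72.2 CPM (-0.91 ± 0.06), so per length the Cox7a1 share was 2.10 and 3.40%, then 6.02 and 5.78%. The testis form Cox6b2 stayed between 1.87 and 4.05 CPM in all 8 libraries with no call (-0.20 ± 0.36), while Cox6b1 fell from 176 and 192 to 120 and 105 CPM (-0.71 ± 0.07). Cox7b2 had at most 20 counts in a library and Cox8c none, while the X-linked Cox7b fell from 101 and 97.6 to 47.3 and 42.0 CPM (-1.15 ± 0.07). Cox7a2l, which helps to join complexes III and IV into supercomplexes, went from 159 and 144 to 137 and 133 CPM (-0.16 ± 0.06). Its call was lost without vehicle naive library 1 (-0.09), vehicle tumor library 2 (-0.14) or MRX-2843 tumor library 2 (-0.14), and it was at 0.093 with library totals.

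The muscle markers Acta1, Ckm, Myh4, Myh6, Tnnt2 and Actc1 summed to 24.4 to 24.5 CPM in vehicle naive brain, 9.65 to 9.75 in vehicle tumor, 30.8 to 33.0 in MRX-2843 naive brain and 26.8 to 31.7 in MRX-2843 tumor, with Actc1 at 0 in vehicle naive brain. In vehicle tumor against naive brain none of the 6 was called higher and 2, Acta1 and Tnnt2, were lower. Markers of mural cells and fibroblasts were at 148 to 149 CPM in vehicle naive brain and 6010 to 6065 in vehicle tumor. They were at 137 to 139 CPM in MRX-2843 naive brain and 144 to 159 in MRX-2843 tumor. These markers moved with Cox8b and Cox6a2, and 4 of the 5 rose in vehicle tumor. Microglia markers (217 CPM, then 1652 to 1689, 221 to 222 and 290 to 292 in the same order of groups) and endothelial markers (134 to 138, then 493 to 503, 143 to 145 and 139 to 144) did so too, with 5 of 5 higher in vehicle tumor in each list. Markers of dividing cells (3.79 to 5.26 CPM, then 213 to 214, 3.40 to 3.73 and 18.8 to 24.7) were also higher in vehicle tumor in 5 of 5. The part of any of these cell types in the rise of the paralogs was not tested.

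**Figure D3:**
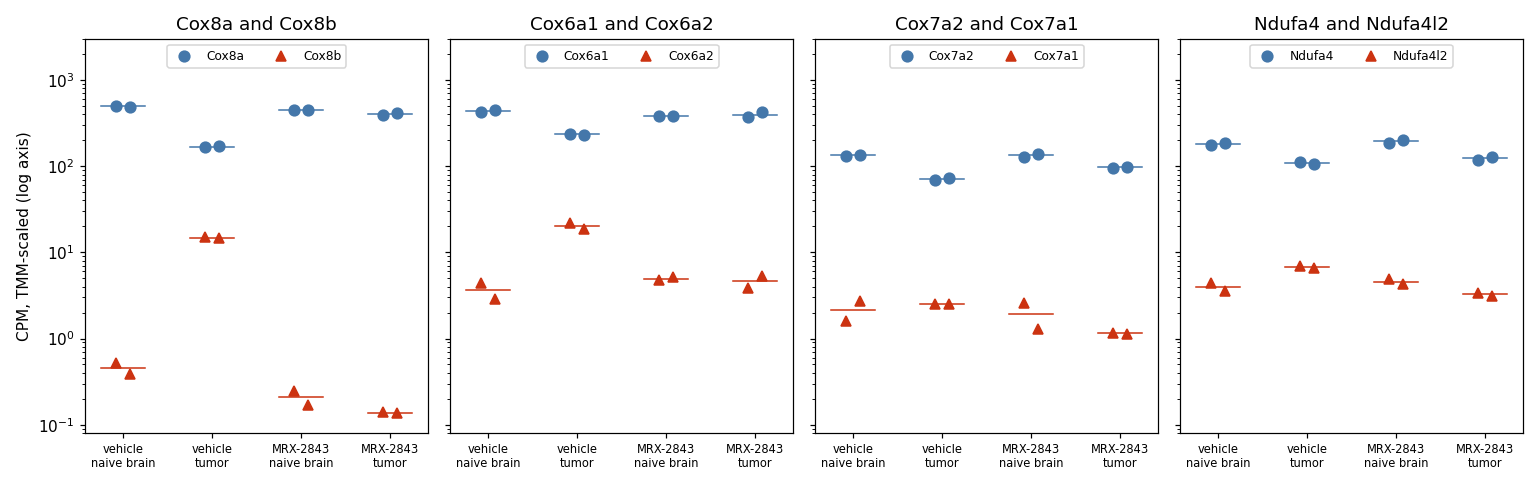
CPM scaled by TMM on a log axis (y) in the 4 groups (x) for 4 pairs of a ubiquitous complex IV subunit gene (circles) and its restricted paralog (triangles). Points are libraries and lines group means of 2. Every ubiquitous gene is lowest in vehicle tumor, where Cox8b, Cox6a2 and Ndufa4l2 are highest, and the Cox7a1 libraries of the vehicle groups overlap.

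Complex V fell with no member higher: 14 of 17 tested members were lower in vehicle tumor (median -0.65). The catalytic subunit gene Atp5b, the most abundant member by CPM, went from 1002 and 1046 to 567 and 587 CPM (-0.83 ± 0.04, adjusted p = 1.5e-10), with 1066 and 1082 in MRX-2843 naive brain against 771 and 782 in MRX-2843 tumor. Atp5a1, the partner subunit in the catalytic head, went from 663 and 690 to 434 and 457 CPM (-0.60 ± 0.05). Atp5md, a small membrane subunit, had the largest fall, from 103 and 108 to 52.2 and 49.2 CPM (-1.06 ± 0.07, adjusted p = 5.9e-09). Atp5k, another one, went from 46.9 and 58.1 to 32.7 and 20.3 CPM (-0.99 ± 0.18, adjusted p = 0.00017).

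The c-ring, the rotor of complex V, is made of the same mature protein from 3 genes, and these did not move alike. Atp5g1 fell from 149 and 161 to 83.4 and 83.1 CPM (-0.90 ± 0.06) and Atp5g3 from 230 and 227 to 139 and 137 CPM (-0.73 ± 0.05). Atp5g2 was at 107 and 111 CPM against 120 and 118, with no call (0.13 ± 0.07, adjusted p = 0.11), and it was called higher with library totals (0.39), with only the 2 groups compared (0.14) and without MRX-2843 tumor library 2 (0.15). Per length, Atp5g2 made up 32.0 and 32.5% of the 3 genes in vehicle naive brain, 47.1 and 46.9% in vehicle tumor, 29.4 and 28.9% in MRX-2843 naive brain, then 37.4 and 39.0% in MRX-2843 tumor. Its share was thus higher in tumor than in naive brain under both treatments, and highest in vehicle tumor. Atp5e and Atp5l were the other members of complex V without a call, at 0.12 ± 0.07 and -0.09 ± 0.08.

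In MRX-2843-treated mice the fall from naive brain to tumor was of similar size with TMM but more even. Of the 86 tested members 74 were lower and none was higher, where over all genes 24.4% were called, 11.9% lower and 12.4% higher. The members' median was -0.52, and that of all genes 0.00. With library totals the members' median was -0.49 here and -0.35 in vehicle-treated mice. The count of 0 higher members from edgeR was the same with DESeq2, and at an unadjusted p under 0.05 it was again 0. This comparison shares no library with the vehicle one. Among the 77 members with a mean of at least 10 CPM, log2 fold changes had an SD of 0.169 and ran from -0.90 to 0.05. In vehicle-treated mice the SD was 0.419 and the range -1.56 to 0.38. The narrower spread was not particular to the members. Over all genes tested the lower and upper quartiles were -0.37 and 0.41 here, and -1.30 and 1.06 in vehicle-treated mice. A total of 61 members were lower in both tumors than in the naive brain of the same treatment. Another 9 had no call in vehicle tumor and were lower in MRX-2843 tumor, and 3 were lower in vehicle tumor alone.

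Sdhc, Sdhd, Ndufc2 and Ndufb11, which were higher in vehicle tumor than in naive brain, were lower in MRX-2843 tumor than in its naive brain, by -0.62 ± 0.07, -0.57 ± 0.07, -0.75 ± 0.09 and -0.46 ± 0.06. Cox8a fell little there (-0.14 ± 0.05, adjusted p = 0.046), and the gene was no longer called without MRX-2843 tumor library 1 (-0.10), MRX-2843 naive library 1 (-0.13) or 2 (-0.16), or vehicle naive library 1 or 2 (-0.15 each). The Cox8a call was also lost with median-of-ratios scaling (-0.12), library totals (-0.11) or a stricter filter (-0.13). A replicate block or only the 2 groups compared removed it as well (-0.15 each). Cox6a1 had no call (0.05 ± 0.06), with an SE small beside the fall of 0.90 in vehicle tumor. Atp5g3 had one of the largest falls, from 285 and 282 to 148 and 158 CPM (-0.89 ± 0.05, adjusted p = 2.8e-08). Complex V had 17 of 17 members lower, complex III 8 of 8 and complex II 4 of 4. Complex I had 35 of 39 and complex IV 10 of 18, and Cox6a2, Cox7a1, Cox8b and Ndufa4l2 had no call.

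**Figure D4:**
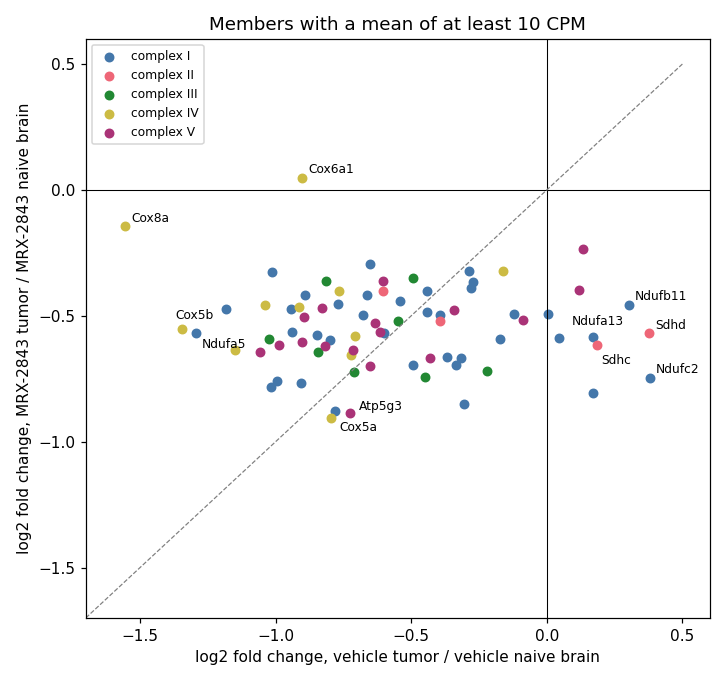
Log2 fold change of tumor against naive brain in vehicle-treated (x axis) and MRX-2843-treated mice (y axis) for the 77 members with a mean of at least 10 CPM, coloured by complex, with the line of equal change dashed. Points spread from -1.56 to 0.38 along x and from -0.90 to 0.05 along y. Cox8a and Cox6a1 lie near 0 on the y axis, and Ndufc2, Sdhd, Ndufb11 and Sdhc lie right of 0 on the x axis and below 0 on the y axis.

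The difference between these falls was tested as the interaction of treatment and tissue. Of 86 members 25 had a positive interaction, with the tumor less reduced under MRX-2843, and 21 a negative one, where over all genes 51.6% were called, 26.3% positive and 25.3% negative. The members' shares lay near those of all genes, and with library totals the counts were 11 positive and 33 negative. Ndufa11 and Ndufa13, accessory subunits of complex I, had no call in vehicle tumor and were lower in MRX-2843 tumor. Ndufa11 was at 53.1 and 58.3 CPM in vehicle naive brain, 60.7 and 64.6 in vehicle tumor, 70.5 and 68.1 in MRX-2843 naive brain, then 38.6 and 40.5 in MRX-2843 tumor, which was the lowest group. Ndufa11 shares 70 exon bases with Vmac on the other strand, which moved the same way: Vmac rose in vehicle tumor (1.47 ± 0.12) and had a negative interaction (-1.46 ± 0.17), and the part of shared reads was not tested. Ndufa13 was at 104 and 113 CPM, 129 and 115, 142 and 130, then 82.3 and 98.6 in the same order. Among members called, the largest positive values were those of complex IV subunits: Cox8a at 1.41 ± 0.07 (adjusted p = 2e-10), Cox6a1 at 0.95 ± 0.08 (adjusted p = 1.7e-07) and Cox5b at 0.79 ± 0.12 (adjusted p = 4.2e-05). Ndufa5 (0.73 ± 0.14) and Ndufb9 (0.71 ± 0.14) followed in complex I. The negative values called were led by Cox8b at -5.54 ± 0.53 (adjusted p = 4e-07), Cox6a2 at -2.60 ± 0.32 (adjusted p = 5.4e-06) and Ndufa4l2 at -1.25 ± 0.34 (adjusted p = 0.0059). Ndufc2 was at -1.12 ± 0.12 (adjusted p = 1.3e-06), Ndufa11 at -0.98 ± 0.11 and Sdhd at -0.95 ± 0.10. Sdhc stood at -0.80 ± 0.09, beside 0.20 ± 0.07 for Sdha, whose call was lost without any 1 of 6 libraries, both of vehicle naive brain and of vehicle tumor, MRX-2843 naive library 2 and MRX-2843 tumor library 2 (0.18 to 0.21), and which was at -0.017 with library totals.

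Set directly against vehicle tumor, MRX-2843 tumor had 43 of 86 members higher and 17 lower, where over all genes 60.4% were called, 30.6% higher and 29.8% lower (members' median 0.21, all genes 0.03). This comparison shares the vehicle tumor libraries with the first one. Its balance depended on the scaling, which with library totals moved the median of all genes by -0.22 and gave 25 members higher and 32 lower. Library totals include the mitochondrially encoded genes, at 3.26 and 3.37% of counts in vehicle tumor and 17.3 and 16.4% in MRX-2843 tumor. Of the other counts, members made up 0.806 and 0.778%, then 0.913 and 0.955%. The part of the mitochondrially encoded genes in the shift was not tested. Members above that shift included Cox8a (1.26 ± 0.05, adjusted p = 9.2e-12), Cox5b (1.01 ± 0.08), Ndufa5 (0.92 ± 0.10) and Ndufb9 (0.88 ± 0.10). Of the 10 ubiquitous complex IV subunits 9 were higher with TMM (median 0.64). Not all of these stood above the shift: with library totals Cox6b1 was at 0.03 and Ndufa4 at -0.04, both without a call. Lower members included Cox8b (-6.72 ± 0.36, adjusted p = 3.5e-10), Cox6a2 (-2.14 ± 0.22), Ndufc2 (-1.05 ± 0.09), Sdhd (-0.89 ± 0.07) and Ndufb11 (-0.59 ± 0.06). The shift between libraries in cell markers moved with this comparison as well, with neuron markers at 300.1 to 304.0 CPM in vehicle tumor and 2326 to 2364 in MRX-2843 tumor.

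In naive brain, 23 members were higher and 4 lower with MRX-2843 than with vehicle, where over all genes 21.5% were called, 9.78% higher and 11.7% lower (members' median 0.15, all genes 0.02). The largest difference called was that of Cox8b (-1.18 ± 0.36, adjusted p = 0.031), which lost its call without MRX-2843 naive library 2 (-0.88), vehicle naive library 1 (-0.96) or vehicle tumor library 1 or 2 (-1.17 each). With only the 2 naive groups compared Cox8b had no call either (-1.14). The other values called lay between -0.22 and 0.43, with Sdhc (0.37 ± 0.06), Uqcrh (0.37 ± 0.06), Ndufb7 (0.38 ± 0.07) and Ndufa1 (0.40 ± 0.10) among those higher. The call of Ndufa1 was lost without MRX-2843 naive library 2 (0.34) or vehicle naive library 2 (0.38). The vehicle and MRX-2843 naive libraries of Uqcrh stood at 139 and 147 against 182 and 188 CPM, without overlap. The 4 lower members were Cox8a, Cox8b, Cox6a1 and Uqcrc2. The counts rested on single libraries, with 10 higher and 1 lower without vehicle naive library 1, 15 and 0 without MRX-2843 naive library 2, 24 and 1 without MRX-2843 naive library 1, and 17 and 2 without vehicle naive library 2. Cell markers differed between the naive groups too. With MRX-2843, 5 of 5 neuron markers were lower (median -0.72) and 3 of 3 inhibitory neuron markers, Pvalb, Gad1 and Gad2, higher (median 0.59). The Y-linked Ddx3y had 32.3 to 76.2 CPM in vehicle libraries and 0 in all MRX-2843 libraries. The sex-linked difference thus cannot be told apart from treatment in any contrast between treatments, and Ndufa1, Ndufb11 and Cox7b are X-linked.

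The 13 subunits encoded in the mitochondrial DNA fell further in vehicle tumor than the nuclear ones. Their summed level was 150582 and 144966 CPM in vehicle naive brain, 27884 and 29220 in vehicle tumor, 177087 and 184584 in MRX-2843 naive brain, then 169078 and 159769 in MRX-2843 tumor. All 13 were lower in vehicle tumor than in naive brain (median -2.38), and 9 of 13 in MRX-2843 tumor than in its naive brain (median -0.17). The median of the nuclear members was -0.61 in the first case and -0.52 in the second, so the mitochondrially encoded genes were the more reduced set in vehicle tumor and the less reduced one in MRX-2843 tumor. mt-Co1, the catalytic subunit of complex IV, was at 43258 and 42157 CPM in vehicle naive brain, 8022 and 8378 in vehicle tumor (-2.38 ± 0.03), 47354 and 49016 in MRX-2843 naive brain, then 47366 and 45652 in MRX-2843 tumor. Left out of the counts altogether, the mitochondrially encoded genes moved the median of all genes by less than 0.001 in every comparison. That fit used TMM, and leaving them out with library totals was not tested.

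**Figure D5:**
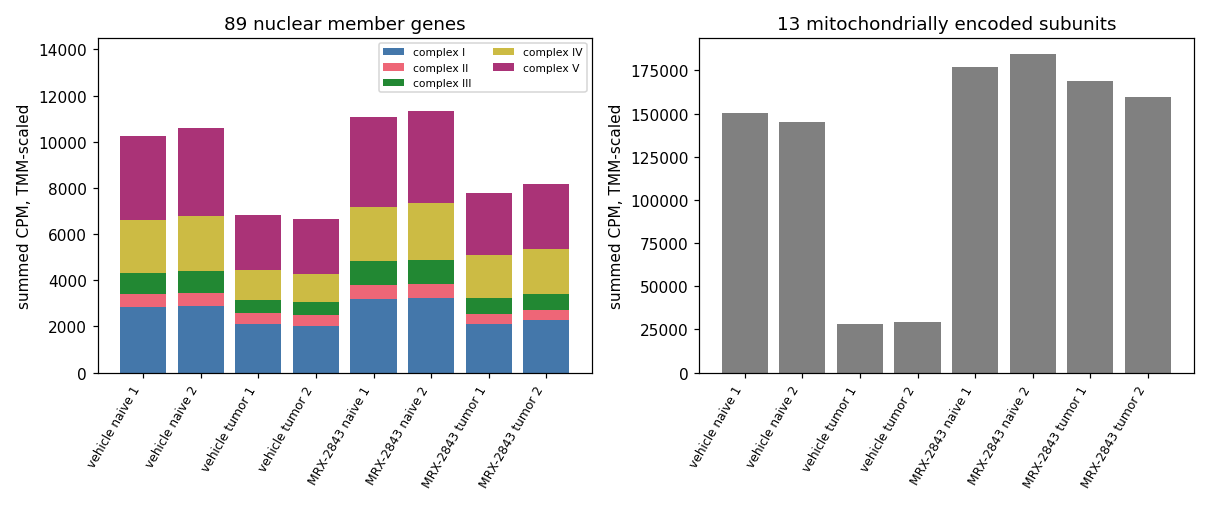
Summed CPM scaled by TMM (y axis) in each of the 8 libraries (x axis), at left for the nuclear members stacked by complex and at right for the 13 mitochondrially encoded subunits. The nuclear sum is 6662 to 6823 in vehicle tumor and 7793 to 8176 in MRX-2843 tumor, and the mitochondrially encoded sum is 27884 to 29220 and 159769 to 169078.

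Subunit genes outside the symbol rule moved with the members. Cox4i1, a ubiquitous complex IV subunit, went from 536 and 540 to 264 and 250 CPM in vehicle tumor (-1.07 ± 0.05), and Cycs, which encodes cytochrome c, from 175 and 175 to 85.7 and 80.2 (-1.08 ± 0.07). In MRX-2843 tumor they stood at 443 and 458 and at 107 and 117 CPM. Of the 5 such genes 4 were lower in each tumor than in the naive brain of the same treatment.

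Genes that assemble the complexes changed less uniformly. Over all genes tested 30.8% were lower and 29.3% higher in vehicle tumor. Of 16 tested complex I assembly genes 10 were lower in vehicle tumor and none higher (median -0.49), led by Ndufaf5 (-1.35 ± 0.12). For complexes II and III 4 of 10 were lower and 1 higher, with Ttc19 at -1.82 ± 0.08 and Lyrm7 at -2.43 ± 0.17. For complex IV 6 of 18 were lower and 3 higher (median -0.02), with Coa3 at -0.76 ± 0.07 and Cox10, which acts in heme a synthesis, at -0.85 ± 0.12. The complex V assembly factor Atpaf1 fell from 50.9 and 48.4 to 14.7 and 14.7 CPM (-1.75 ± 0.09), one of 2 lower genes among 3.

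Among 12 regulators of nuclear respiratory genes 3 were higher and 4 lower in vehicle tumor, where over all genes 29.3% were higher and 30.8% lower. The shares of this list lay near those of all genes. Gabpa, a subunit of the GABP factor, rose from 17.8 and 16.1 to 45.8 and 45.0 CPM (1.42 ± 0.10, adjusted p = 7.6e-09), with 22.6 and 22.6 in MRX-2843 tumor. It shares exon bases with the member Atp5j on the other strand, which fell. The coactivator gene Ppargc1a fell from 25 and 22.5 to 6.64 and 6.78 CPM (-1.82 ± 0.15, adjusted p = 6.8e-08), with 16.3 and 16.9 in MRX-2843 tumor, and the related Pprc1 rose (0.82 ± 0.12).

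Elsewhere in the mitochondrion, 10 of 14 tricarboxylic acid cycle genes were lower and 2 higher (median -0.41), with Idh3a of the NAD-linked isocitrate dehydrogenase at -1.63 ± 0.07 and the NADP-linked Idh2 at 1.44 ± 0.07. For this and the following lists, the shares over all genes in vehicle tumor were 30.8% lower and 29.3% higher. Of 9 carrier and ATP export genes 7 were lower and 1 higher (median -0.51). Among them Ckmt1, a mitochondrial creatine kinase, went from 187 and 205 to 4.93 and 4.63 CPM (-5.36 ± 0.08), and the ATP carrier gene Slc25a4 fell by -1.27 ± 0.05. Of 13 outer membrane and import genes 6 were lower and 3 higher, led by the channel gene Vdac1 (-1.33 ± 0.05), and in MRX-2843 tumor 13 of 13 were lower than in naive brain (median -0.43). Of 9 genes that respond to low oxygen 4 were higher and 3 lower (median 0.19), with Adm at 3.44 ± 0.30 and Bnip3 at -1.73 ± 0.11. The 85 cytosolic ribosomal protein genes, a list added after the data were seen, moved against the members in vehicle tumor (76 higher, 2 lower, median 0.86). In MRX-2843 tumor they moved with the members, with 1 higher and 55 lower than in naive brain (median -0.24). In naive brain 56 were higher and 0 lower with MRX-2843 than with vehicle (median 0.28, beside 0.15 for the members).

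Promoter sequences were searched because the members moved together. Of the 88 member symbols 69 had an entry in the RefSeq table of GRCm38.p6. On either strand of the 300 bases, 17 (24.6%) held a motif of NRF1, GCGCA and GCGC with any 1 base between, against 5.19% of all 27025 genes in the table. A further motif, AAGATGGC of YY1, was held by 10 (14.5%, against 3.19%), and ACTTCCGG of GABP by 5 (7.25%, against 4.31%). Over the 17491 protein-coding genes alone the shares were 7.17% for NRF1, 3.57% for YY1 and 5.69% for GABP. At least 1 of the 3 was present in 30 members (43.5%, against 11.7% of all genes and 15.1% of protein-coding ones). A match is a description of letters and not a measured binding site. The median change in vehicle tumor was -0.64 for the 30 members with a motif and -0.71 for the 39 without. In MRX-2843 tumor against its naive brain the medians were -0.57 and -0.55.

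By direction, 27 of 54 members that were lower in vehicle tumor held a motif, 2 of 11 without a call and 1 of 4 that were higher. That 1 was Sdhd, whose sequence is shown as the riser that holds the NRF1 motif, in capitals, 79 bases before the start. It is the 250 bases at chr9:50603850-50604099 (minus) of GRCm38.p6.
Sdhd: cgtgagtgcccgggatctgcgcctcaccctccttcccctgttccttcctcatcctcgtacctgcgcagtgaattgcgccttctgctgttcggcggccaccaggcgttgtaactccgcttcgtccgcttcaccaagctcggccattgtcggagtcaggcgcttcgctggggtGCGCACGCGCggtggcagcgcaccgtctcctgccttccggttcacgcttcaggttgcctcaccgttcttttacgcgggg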

How the data were processed

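RNA of brain tumor and naive brain was sequenced in 8 libraries, 2 in each of 4 groups. The deposited table holds whole-number read counts per gene. Tools listed in the submitters' processing notes are Subread, featureCounts, STAR 2.7.7a and SAMtools, and both mm10 and hg38 are listed as builds, with no role given. The annotation and the strand setting are not given in the sources used here, so reads of genes that share exon bases on opposite strands cannot be told apart, which applies to 31 members. Of counts from 1 to 50, 76.0 to 80.5% were even in each library, so counting intervals may be too narrow. A count of 0 allows up to 3 counts, 0.0281 to 0.0615 CPM, for counting error only.

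The members, gene lists and alternatives were chosen with earlier results of these data known. Members were matched to GENCODE M21 (GRCm38) by Ensembl identifier without version, for position, exon length and shared exon bases. Of them 84 are protein coding there and 3 (Cox8c, Ndufb11b and a second Atp5o entry) had no counts. The pseudogene rows left out amount to 0.312 to 0.541% of the members' counts. Ndufa4 and Ndufa4l2 were placed in complex IV.

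The model was edgeR 4.0.16 (R 4.3.3) with TMM scaling, a filterByExpr filter with a minimum count of 10, 4 group means, 4 residual degrees of freedom and a common biological coefficient of variation of 21.0%. P-values were adjusted over all 24356 genes tested (Benjamini-Hochberg). SEs were taken from the F statistic, as |log2 fold change| / sqrt(F). The script was tested on simulated data. Libraries of a group differed by more than counting noise, with a chi-square per degree of freedom of 9.68 to 21.6, so none was treated as the same library deposited again, which does not show that they came from separate animals. Named with values are, in each complex, the 2 members of highest level per length and the 2 largest called rises and falls in vehicle tumor, all of complex II, the families with a tissue-restricted paralog, and members called in the interaction against its majority. List genes named are those of smallest adjusted p. The Cox8b and Sdhd promoters and the genes that share exons with members or lie near them were singled out after their values were seen. Alternatives were other scalings, no filter, a filter of at least 1 CPM in 2 libraries, DESeq2 1.42.0, a replicate block, only the 2 groups compared, no mitochondrially encoded genes, and leaving out each library. Promoters are from RefSeq (GRCm38.p6). Python 3.11.15, pandas 2.3.3 and matplotlib 3.10.9 made tables and plots.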

Additional observations from a re-analysis of the deposited data

Results flagged for a closer look

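The change from naive brain to tumor differed between vehicle and MRX-2843 by the test of the interaction in 46 members, 25 with a positive and 21 with a negative log2 difference. Over all genes tested 51.6% were called, 26.3% positive and 25.3% negative, so the members' count is near that of genes in general. Among the named genes of complex I the differences were 0.73 for Ndufa5 and 0.71 for Ndufb9, and -1.12 for Ndufc2, -0.98 for Ndufa11, -0.76 for Ndufb11, -0.75 for Ndufa13, -0.64 for Ndufb6, -0.55 for Ndufb1, -0.50 for Ndufa7, -0.42 for Ndufv3, -0.37 for Ndufa2, -0.36 for Ndufv2 and -0.35 for Ndufb7. The call of Ndufb1 was lost without MRX-2843 naive library 2 (-0.26), either MRX-2843 tumor library (-0.56 and -0.55), vehicle naive library 1 (-0.45) or vehicle tumor library 1 (-0.46). That of Ndufa2 was lost without MRX-2843 naive library 1 (-0.30), MRX-2843 tumor library 1 (-0.32) or vehicle naive library 1 (-0.27), and that of Ndufv2 without MRX-2843 naive library 2 (-0.24). In complex II they were 0.20 for Sdha, -0.80 for Sdhc and -0.95 for Sdhd. In complex III Uqcrc1 was at 0.43 and Uqcr11 at 0.45, with Uqcrb at -0.50 and Uqcrh at -0.30. Uqcr11 lost its call without MRX-2843 tumor library 2 (0.27) or vehicle naive library 2 (0.36) and with library totals (0.23), and Uqcrh without vehicle naive library 1 (-0.26).

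In complex IV 7 of 10 ubiquitous subunits had a positive difference and 3 had no call, with 1.41 for Cox8a, 0.95 for Cox6a1, 0.79 for Cox5b, 0.51 for Cox7b and 0.45 for Cox7a2. Of 6 tissue-restricted paralogs 3 had a negative one and 3 had no call, with -5.54 for Cox8b, -2.60 for Cox6a2 and -1.25 for Ndufa4l2. In complex V Atp5md was at 0.41, Atp5b at 0.36, Atp5g1 at 0.30 and Atp5a1 at 0.24, and Atp5e at -0.52, Atp5l at -0.43 and Atp5g2 at -0.37. With library totals the first 4 lost their call, at 0.20 for Atp5md, 0.14 for Atp5b, 0.079 for Atp5g1 and 0.023 for Atp5a1, and Atp5g1 also without MRX-2843 tumor library 2 (0.23) or vehicle naive library 2 (0.24).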

How the results depend on the processing

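Library totals in place of TMM moved the median of all genes by 0.25 in vehicle tumor against naive brain, by -0.22 in MRX-2843 tumor against vehicle tumor and by -0.22 in the interaction. Members higher in vehicle tumor went from 7 to 13 (11 with only the 2 groups compared, 64 lower in the report becoming 51 with library totals), those higher or lower in MRX-2843 tumor against vehicle tumor from 43 and 17 to 25 and 32, and those of the interaction from 25 and 21 to 11 and 33. With library totals the sign turned in vehicle tumor for Uqcrb (0.032), Ndufv3 (0.081) and Cox7a2l (0.093), in MRX-2843 tumor against vehicle tumor for Atp5g3 (-0.075), Ndufa4 (-0.043), Ndufb7 (-0.19), Cox7a2l (-0.20) and Atp5a1 (-0.039), and in the interaction for Sdha (-0.017).

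Leaving out 1 library at a time, members higher in MRX-2843 naive brain ranged from 10 to 28 and lower from 0 to 4. The replicate numbers did not pair the libraries (correlations of deviations -0.007 to 0.018). With a replicate block members higher and lower numbered 7 and 63 in vehicle tumor, 42 and 17 between the tumors, 0 and 73 in MRX-2843 tumor against its naive brain, 20 and 3 in naive brain, and 24 and 21 in the interaction. Over the single genes named, 3395 of 3625 alternative values kept their side of the threshold, 149 lost a call and 72 gained one. The other 9 changed sign with a call before or after the change. Sign changes of values with no call either way are counted within the 3395. With 2 libraries a group and 4 residual degrees of freedom, the precision of small differences was limited.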
